A study of Mus musculus with 12 samples.

Results

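ZBTB43 peaks were examined at 39 mouse germ cell, meiosis and piRNA pathway genes, chosen by name for their known roles. A peak was counted at a gene where it overlapped by at least 1 bp the GENCODE M21 gene span extended by 10 kb on both sides. By this rule 14 of the 14694 TKO peaks and 176 of the 175775 SssI peaks lay at these genes, in windows of 2.66 Mb in all. In the affinity-seq assay, recombinant ZBTB43 fused to maltose binding protein (MBP) captured fragments of purified genomic DNA, and MBP alone served as the control on the same DNA. The unmethylated DNA was from a single clone of male TKO ES cells, embryonic stem cells of the genotype Dnmt1-/-Dnmt3a-/-Dnmt3b-/-, with a labelled age of 3.5 dpc. The methylated DNA was lung DNA of wild-type C57BL/6N male mice aged 2 months, methylated at CpGs with the bacterial enzyme M.SssI after fragmentation, so the DNAs differed in cell of origin as well as in methylation, and these cannot be told apart. There were 2 libraries in each of the 4 conditions (8 of 12 libraries), and 4 libraries of sperm DNA were not analysed here.

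PIWI-interacting RNAs (piRNAs) are small RNAs that guide PIWI proteins to transposon transcripts and, in foetal male germ cells, to the transposon copies that become methylated. ZBTB43 is a zinc finger protein that binds purine-pyrimidine repeats (PPRs), in which purines and pyrimidines alternate along the strand and which can adopt the left-handed Z-DNA form. The genes described here act in the germ line, but the capture was done on naked DNA, so a peak says that the protein bound the sequence in vitro and not that it bound or regulated the gene in a germ cell.

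The sequences of the peaks at these genes are shown first, because the tract is what most of them share. Each is on the forward strand of GRCm38, the assembly that mm10 names, written 5′ to 3′. In the Piwil4, Tdrd7, Tdrkh, Smc1b, Prdm14 and Ddx4 peaks it is the longest alternating tract, and capitals mark its CpGs. Of tracts over 120 bases, the central 120 are printed. The strongest TKO peaks at these genes, in Tdrd1 and Tdrd9, held no alternating tract of 12 bp or more. The tandem repeat in each is printed instead, a choice made after their values were seen, with the first copy in capitals and, in Tdrd9, the first 120 bases of the repeat.
Tdrd1 intron 11, chr19:56845987-56846045: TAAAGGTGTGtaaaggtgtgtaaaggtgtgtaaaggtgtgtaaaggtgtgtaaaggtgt
Tdrd9 intron 9, chr12:112010200-112010319: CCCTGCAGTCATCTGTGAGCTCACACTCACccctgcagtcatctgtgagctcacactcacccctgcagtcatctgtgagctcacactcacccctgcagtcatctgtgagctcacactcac
Piwil4 upstream, chr9:14746752-14746871: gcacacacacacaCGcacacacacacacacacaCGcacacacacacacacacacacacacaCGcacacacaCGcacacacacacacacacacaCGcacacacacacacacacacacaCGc
Tdrd7 intron 15, chr4:46029380-46029444: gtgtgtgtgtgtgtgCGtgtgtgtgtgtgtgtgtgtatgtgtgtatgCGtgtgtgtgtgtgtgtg
Tdrkh upstream, chr3:94408485-94408506: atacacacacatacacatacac
Smc1b upstream, chr15:85133560-85133588: atgcacacacatgcaCGcatacatgcata
Prdm14 upstream, chr1:13127835-13127897: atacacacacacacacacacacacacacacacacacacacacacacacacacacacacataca
Ddx4 upstream, chr13:112653809-112653840: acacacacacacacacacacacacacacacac

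The tracts at Prdm14 and Ddx4 were mainly CA steps and had no CpG, whereas that at Piwil4 was a CA run broken by CpGs, with 19 CpGs over its full 304 bp. The Smc1b tract mixed CA, TA and CG steps without a CA run of 12 bp. The Tdrkh peak differed again, with 21 separate tracts of 12 bp or more, the longest of 22 bp, and no CpG. In Tdrd1 the repeat had a 10 bp unit that ran without a mismatch for 59 bp, and in Tdrd9 a 30 bp unit that did so for 155 bp. Neither unit held a CpG, although the whole peaks held 9 and 6.

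The authors pooled the duplicates of each condition before peak calling, so there is 1 list for each DNA and no spread between replicates. For this reason nothing was tested between the DNAs. Without read counts in the lists, the depth of a peak is unknown. Each peak carries a score that rises with its significance over MBP and also with depth, so scores and ranks are compared within a list only. The ranges beside shares are Wilson intervals at 95% confidence. They describe counting error over peaks, genes or tracts and not the variation between captures.

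SssI peaks lay at 36 of the 39 genes (92.3%, 79.7 to 97.3) and TKO peaks at 11 (28.2%, 16.5 to 43.8). Of all 21938 protein-coding genes, 83.1% had an SssI peak and 24.7% a TKO peak by the same count. The genes studied were longer, with a median of 43.6 kb against 17.4 kb, and longer genes have room for more peaks. Each was therefore set beside the 500 other protein-coding genes nearest to it in length. The median was 4 SssI peaks a gene, and the 176 peaks compared with 188.6 from the mean counts of the genes of similar length. For TKO the 14 peaks compared with 16.7. In SssI peaks 18 genes were above the median of their length class, 5 equal to it and 16 below. As a set, the genes thus held about as many peaks as others of their size. Counted in the gene spans alone, without the 10 kb on each side, the median was 2 against 3 in genes of similar length, and 13 of 39 genes were above.

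The order of the roles depended in part on the comparison. Each gene was also set beside the 500 genes nearest to it in number of alternating tracts of 24 bp or more in the window, which gave 174.5 SssI peaks in all. The germ cell specification genes, with 61 peaks, were above both comparisons (41.6 by length and 48.2 by tracts). The meiosis genes, with 30, were below both (42.1 and 37.2), as were the Tudor domain genes, also with 30 (36.3 and 36.1). For the other piRNA pathway genes the direction turned, with 39 peaks against 53.6 by length and 35.4 by tracts. It turned for the PIWI genes too, with 16 against 14.9 by length and 17.6 by tracts.

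**Figure D1:**
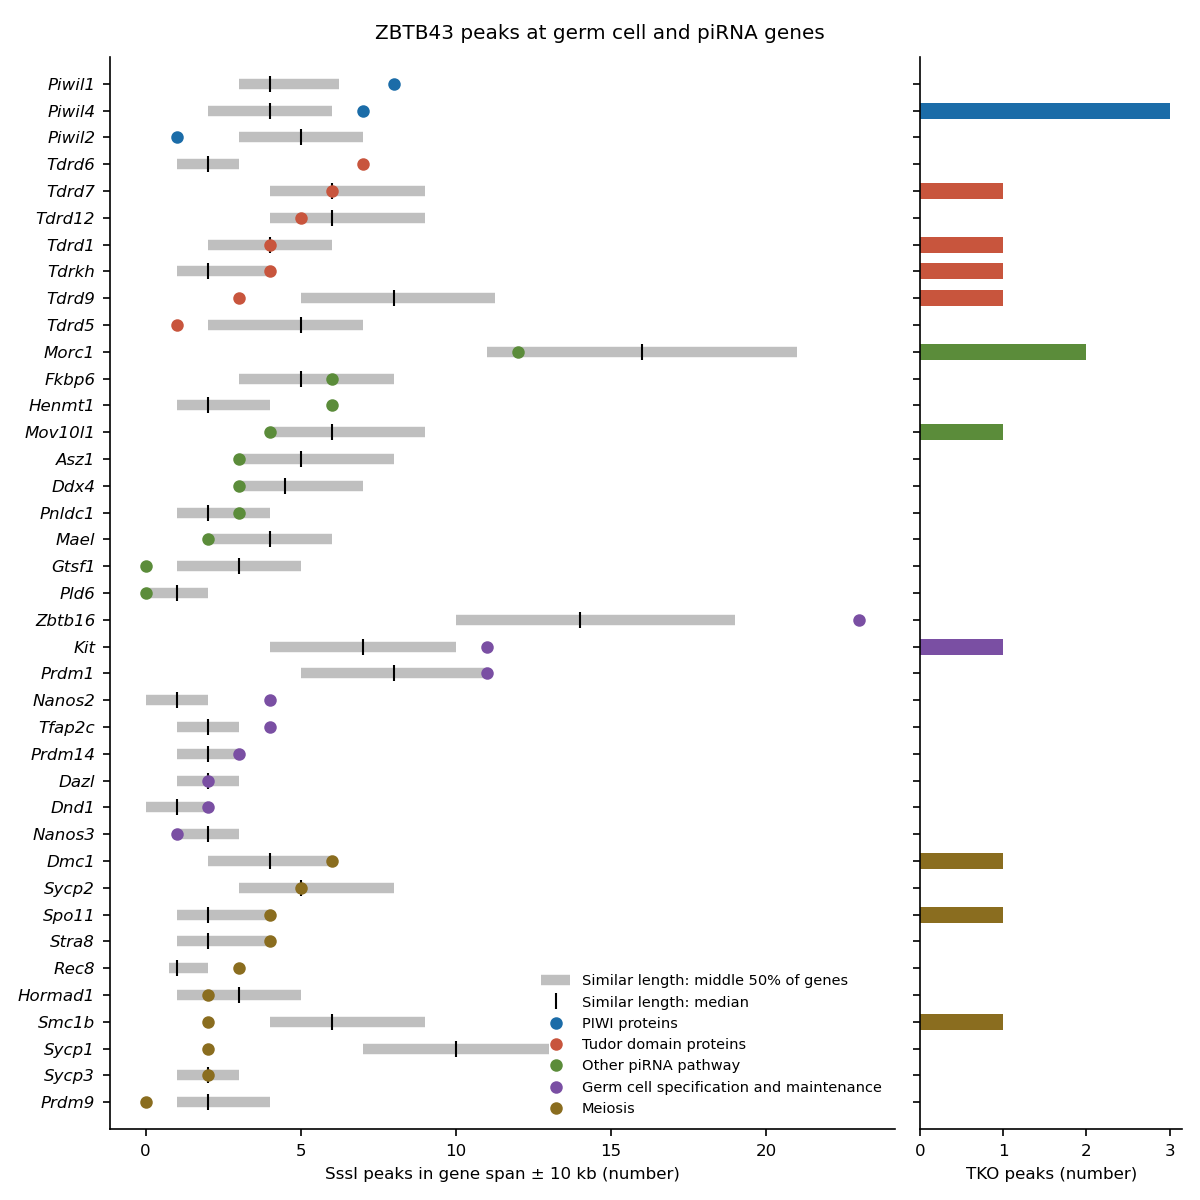
Number of SssI peaks (left, points) and TKO peaks (right, bars) in the span of each gene extended by 10 kb, coloured by role. Grey bars span the middle 50% of the 500 protein-coding genes nearest in length and black ticks mark their median; Zbtb16 (23 peaks) and Tdrd6 (7) lie above their grey bars and Sycp1 (2) and Piwil2 (1) below.

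The PIWI proteins bind piRNAs directly. Piwil4, the nuclear PIWI protein of foetal prospermatogonia, had 7 SssI peaks against a median of 4 in genes of its length, and 3 TKO peaks, the most of any gene studied. Of genes of its length 30.4% had any TKO peak, and of genes with as many tracts 43.8%. The 3 TKO peaks of Piwil4 scored 2192, 151 and 63. They were all those of the PIWI genes, which compared with 1.3 from the mean counts of genes of similar length. Piwil1, which acts in spermatocytes and spermatids, had 8 SssI peaks against 4 and no TKO peak, and its strongest SssI peak scored 150. Piwil2, a cytoplasmic PIWI protein that takes part in piRNA amplification, had a single SssI peak against a median of 5, downstream of the gene with a score of 55. Thus Piwil4 and Piwil1 stood at percentiles 82.0 and 83.4 of their length classes and Piwil2 at 6.5. A percentile is the share of the comparison genes with fewer peaks, ties counted at mid-rank. Against genes with as many tracts, Piwil4 had 7 against 6 (percentile 65) and Piwil1 8 against 7 (68.3). Piwil2 had 1 against 4 (2.7).

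The Tudor domain proteins bind methylated arginines of PIWI proteins and help to assemble germ granules. All 7 genes had at least 1 SssI peak. Tdrd6, a component of the chromatoid body, had 7 against a median of 2 and the highest percentile of all 39 genes (97.9), although none of the 7 overlapped a TKO peak and 4 lay downstream of the gene. Its window held 15 tracts of 24 bp or more, and against genes with as many tracts it had 7 against 6 (percentile 68.7). Tdrd7 by that comparison had 6 against 10 and Tdrd1 4 against 2. Tdrkh, which helps to trim piRNA ends, had 4 against 2. Tdrd7 (6 against 6) and Tdrd1 (4 against 4) equalled their medians, and Tdrd12, a partner of Tdrd1 in piRNA production, had 5 against 6. Tdrd9, a helicase that partners Piwil4, had 3 against 8, and Tdrd5, which binds piRNA precursors, had 1 against 5. Peak number and score ordered these genes differently. Tdrd1 and Tdrd9, with no more peaks than their medians, held the strongest TKO peaks described here, while the best SssI peak of Tdrd6 scored 380. TKO peaks occurred at Tdrd1, Tdrd7, Tdrd9 and Tdrkh, 1 at each. These 4 compared with 3.2 from the mean counts of genes of similar length.

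The other piRNA pathway genes had 39 SssI peaks in all, fewer than in genes of similar length, with 7 of 10 below their median, though by number of tracts only 2 of 10 were below. Gtsf1, which PIWI proteins need for cleavage, and Pld6, a mitochondrial outer membrane protein of piRNA processing, had no peak in either list. The Gtsf1 window nevertheless held 5 alternating tracts of 24 bp or more, and that of Pld6 held 1. Mov10l1, the helicase that starts piRNA processing, had 4 SssI peaks against 6 and 1 TKO peak. Morc1, needed for transposon repression in the male germ line, had 12 against 16 and 2 TKO peaks, 70.6% of genes of its length having any. The role thus held 3 TKO peaks, against 4.7 from the mean counts of genes of similar length. Asz1, a mitochondrial partner of piRNA processing (3 against 5), Ddx4, the germ cell helicase also known as Vasa (3 against 4.5), and Mael, needed for transposon silencing (2 against 4), were also below. Henmt1, the methyltransferase of piRNA 3′ ends, went the other way with 6 against 2 (percentile 92.9), as did Fkbp6, a co-chaperone (6 against 5), and Pnldc1, the piRNA trimming exonuclease (3 against 2).

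The genes of germ cell specification and maintenance had the most SssI peaks, with 7 of 9 above the median of their length class, 1 equal and 1 below. By number of tracts 8 of 9 were above and 0 below, with Zbtb16 at 23 against 20 and Kit at 11 against 10. By length Zbtb16, a zinc finger factor of spermatogonial stem cells, had 23 against 14. Kit, the receptor tyrosine kinase of migrating and differentiating germ cells, had 11 against 7. Prdm1, a repressor of the somatic programme in primordial germ cells, had 11 against 8. Its partners Tfap2c and Prdm14 had 4 against 2 and 3 against 2. Nanos2, which keeps male germ cells out of meiosis, had 4 against 1 (percentile 95). None of these lay in the gene itself, which is 1.6 kb long, and all were in the 10 kb on either side. Dnd1 (2 against 1) was also above, Dazl (2 against 2) equal and Nanos3 (1 against 2) below, all of them RNA-binding proteins or partners of such proteins. At Tfap2c, Dnd1 and Dazl, as at Nanos2, the SssI peaks lay only in the 10 kb on either side of the gene. Those of Dnd1 were inside the neighbouring gene Hars. Only Kit had a TKO peak, so that the role held 1 against 3.7 from the mean counts of genes of similar length. Without Zbtb16, the gene with the most SssI peaks, a setting added after the data were seen, the median over the other genes studied was 3.5 in place of 4.

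Of the meiosis genes 4 were above the median of their length class, 2 equal and 4 below. By number of tracts 3 were above and 5 below. Sycp1, the transverse filament protein of the synaptonemal complex, had 2 in 117.6 kb against a median of 10, the lowest percentile of all 39 genes (2.5). The axial element genes Sycp2 (5 against 5) and Sycp3 (2 against 2) equalled their medians. Smc1b, a meiotic cohesin subunit, had 2 against 6, Hormad1, an axis protein, had 2 against 3, and Prdm9, which directs recombination hotspots, had none in either list against 2, although its window held 5 alternating tracts of 24 bp or more. Dmc1, the meiotic recombinase, had 6 against 4. Spo11, which makes the meiotic double-strand breaks, and Stra8, which drives meiotic entry, each had 4 against 2, and the cohesin subunit Rec8 had 3 against 1. By number of tracts Rec8 turned to 3 against 4 (percentile 23.5) and Dmc1 to 6 against 7, and Stra8 equalled its median of 4. Sycp1 (2 against 5, percentile 7.5) stayed low. Spo11, Dmc1 and Smc1b had 1 TKO peak each. These 3 compared with 3.7 from the mean counts of genes of similar length.

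The 14 TKO peaks ranged in score from 63 to 2865, on both sides of the list median of 192. The Tdrd1 peak at chr19:56845805-56846198 scored 2865 and ranked 102 of 14694. The Tdrd9 peak at chr12:112009693-112010564 scored 2792 and ranked 119. These were the only peaks at the genes studied in the strongest 1% of the TKO list, and both lacked an alternating tract. Over the whole list 3.53% of TKO peaks lacked one, and 28 of the strongest 146 did (19.2%, 13.6 to 26.3).

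The peak downstream of Kit scored 2233 (rank 444) and held 43 CpGs. The Piwil4 peak 6.11 kb upstream of the start, at chr9:14746557-14747124, scored 2192 (rank 479) and held 20 CpGs. The Tdrd7 peak in intron 15, at chr4:46029022-46029674, scored 1899 (rank 810). With Tdrd1 and Tdrd9 these made up 5 of 14 peaks in the top 10% of the list (35.7%, 16.3 to 61.2).

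The Tdrkh peak 4.74 kb upstream, at chr3:94408256-94408810, scored 1262 (rank 1672), and the Morc1 peak 3.22 kb upstream scored 507 (rank 3894). The remaining 7 scored 63 to 151 and lay in the lower part of the list. They were in introns 4 (chr9:14734270-14734475, score 151) and 18 (chr9:14703427-14703599, score 63) of Piwil4, intron 25 of Morc1 (chr16:48625839-48626014, score 90), intron 22 of Mov10l1 (chr15:89028380-89028542, score 72), upstream of Spo11 (score 114) and Smc1b (chr15:85133546-85133719, score 110), and downstream of Dmc1 (chr15:79551383-79551573, score 114). The Dmc1 peak was 9923 bp from the gene, just inside the 10 kb limit. The nearest TKO peak outside the limit was 12632 bp from Stra8 and scored 119.

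All 14 TKO peaks overlapped an SssI peak (78.5 to 100%), as did 99.4% of the whole TKO list. In the other direction 14 of 176 SssI peaks overlapped a TKO peak (7.95%, 4.80 to 12.9), against 8.23% of the whole SssI list, so sharing at these genes was near the background both ways. The shared SssI peaks had a median score of 1026 and the others 91. Over the whole SssI list these medians were 1187 and 96. The Tdrd1 site was the strongest at these genes in both, with an SssI score of 1980 and rank 639.

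**Figure D2:**
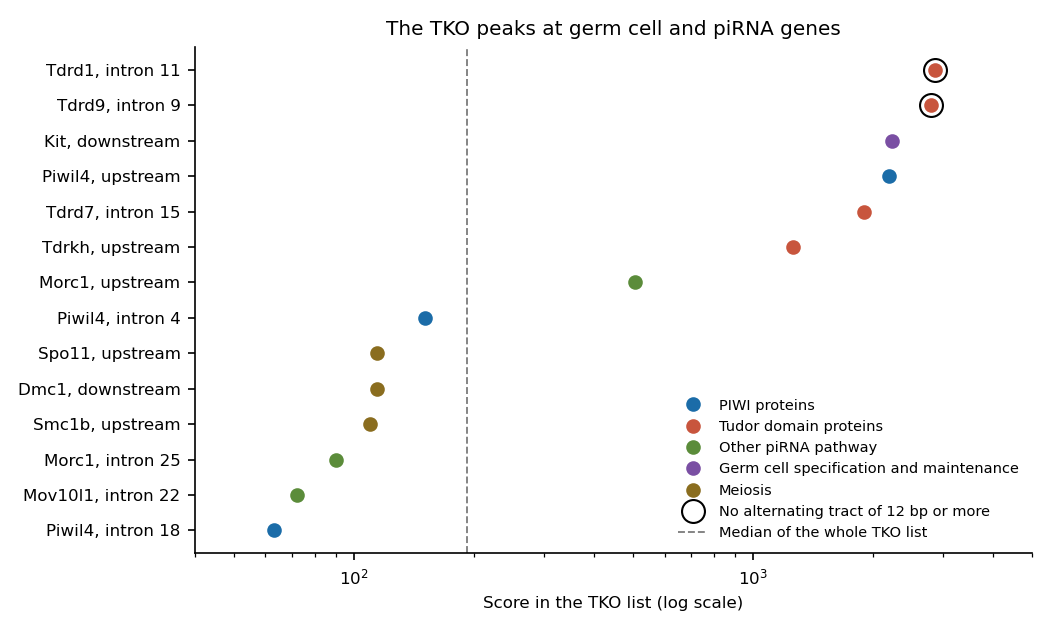
Scores of the 14 TKO peaks within the TKO list (horizontal axis, log scale), from the highest to the lowest, coloured by role. The dashed line is the median of the whole list (192) and open circles mark the Tdrd1 and Tdrd9 peaks, which have no alternating tract of 12 bp or more and the highest scores; 7 peaks lie above the line and 7 below it.

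The 5 strongest SssI peaks were at Tdrd1 (1980), Morc1 (1633), Tdrd9 (1517), Nanos2 (1487) and Tdrkh (1404). The Nanos2 peak, 6.24 kb upstream at chr7:18980882-18981443, was the only one of these with no TKO peak. It resembled the Tdrkh peak in holding many short tracts, 13 of 12 bp or more, of which the longest was 16 bp. Across all 176, the median score was 97 against 108 in the list, and the median rank 53.0% from the top. For the 14 TKO peaks the median score was 329 against 192, and the median rank 41.9%.

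Most SssI peaks were inside the genes: 115 of 176, of which 113 were in introns, 2 in untranslated regions (of Tdrd1 and Fkbp6) and 0 in coding sequence. A further 39 were upstream and 22 downstream. The midpoints of 20 of the 176 lay in another annotated gene. Of the TKO peaks 7 were intronic, 5 upstream and 2 downstream. Per 100 kb of sequence the gene bodies held 6.13 SssI peaks against 7.20 for all protein-coding genes, and the 10 kb flanks 7.69 against 6.67.

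Near the start sites, 17 SssI peaks and 2 TKO peaks had their midpoint within 3 kb. At least 1 such SssI peak was found at 12 of the 39 genes (30.8%, 18.6 to 46.4), against 29.8% of all protein-coding genes, and a TKO peak at 2 (5.13%, 1.42 to 16.9), against 2.62%. These shares were near the background. The strongest was 1.4 kb upstream of Ddx4, at chr13:112653738-112654021 with a score of 1019. Spo11 had 3, one 2.10 kb upstream (score 909) that was shared with TKO and the others at 0.76 kb (230) and 2.02 kb (138) in intron 1. Smc1b had 2, at 1.66 kb (654, shared with TKO) and 1.12 kb (38) upstream, both inside the neighbouring gene Ribc2.

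The peak closest to a gene's 5′ end on the upstream side was that of Prdm14, 0.58 kb away at chr1:13127497-13127980 with a score of 738. On the downstream side it was that of Nanos3, at 0.54 kb in intron 1 (408). Starts of other transcripts can lie closer to a peak. The Spo11 peak with a score of 138 was 126 bp upstream of one. Zbtb16 had a peak at 2.34 kb in intron 1 (739). Stra8 had peaks 0.90 kb upstream (169) and 1.06 kb downstream (41), and Rec8 2.57 kb upstream (35) and 1.23 kb downstream (119). The remaining peaks near a start were weaker, with scores of 91 at Tdrd12 (1.64 kb), 69 at Tdrd6 (1.49 kb upstream), 39 at Kit (2.2 kb) and 35 at Mov10l1 (2.32 kb). Of the 17 peaks, 9 were at 4 of the 10 meiosis genes, and 0 at the 3 PIWI genes. With 29.8% of all protein-coding genes having such a peak, these roles hold too few genes to show a difference.

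**Figure D3:**
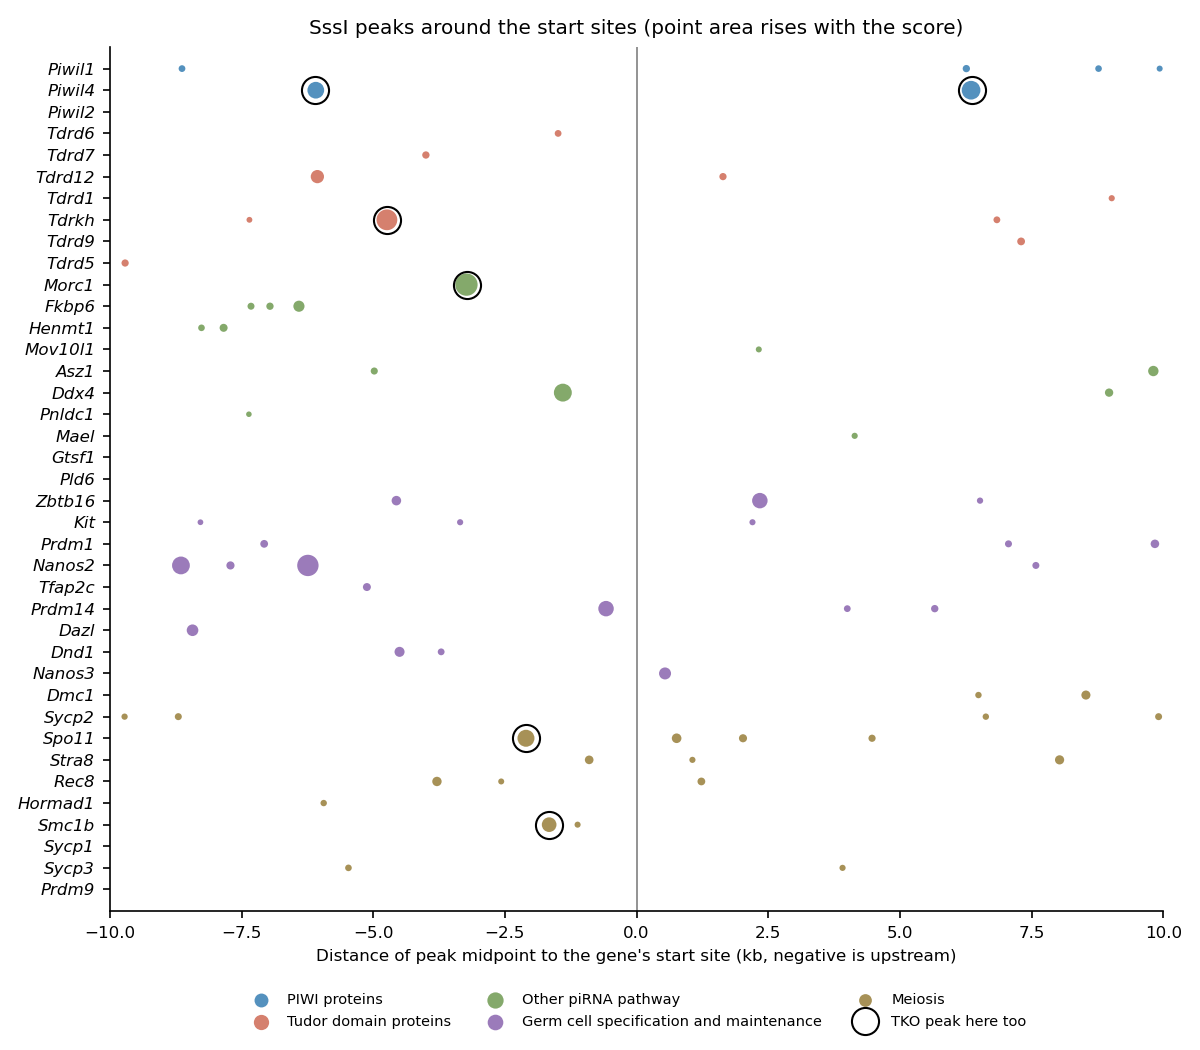
Midpoints of SssI peaks within 10 kb of each gene's start site (horizontal axis, kb along the gene's strand, negative is upstream), coloured by role, with point area rising with the score and open circles where a TKO peak overlapped. Among peaks within 3 kb, only those upstream of Spo11 and Smc1b carry an open circle.

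RefSeq promoter windows of GRCm38.p6, 300 bases that span each start, matched 30 of the 39 genes by symbol, with 41 start sites. No peak of either list overlapped them. Of all 32851 windows, 1.28% (SssI) and 0.0913% (TKO) were overlapped, so 41 windows are too few to show a lower share. An alternating tract of 12 bp or more was present in 10 of the 41 (24.4%), against 9.28% of all windows. These were in 7 genes (Hormad1, Mov10l1, Sycp3, Tdrd1, Tdrd7, Tdrd9 and Tdrd12). Several of these windows belong to the same gene and overlap.

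An alternating tract of 12 bp or more, not of A and T alone, was present in 173 of 176 SssI peaks (98.3%, 95.1 to 99.4; 98.7% of the list) and in 12 of 14 TKO peaks (85.7%, 60.1 to 96.0; 96.5% of the list). Runs of CA of at least 12 bp made up the tract type of 166 SssI peaks (94.3%, against 92.1% of the list) and 11 TKO peaks (78.6%, 52.4 to 92.4, against 84.8%). The SssI peak in intron 11 of Piwil4 (score 537) was the only one of the CACG type, with 10 CpGs in its tract of 79 bp, and the peak in intron 1 of Prdm1 (score 42) the only one of the CG type. In the whole SssI list 0.749% of peaks were of the CACG type and 1.30% of the CG type. Both peaks were named after their values were seen.

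Many alternating tracts at these genes were not in a peak. Of the 423 tracts of 24 bp or more in the windows, 46.3% (41.6 to 51.1) lay over an SssI peak, against 48.7% at all protein-coding genes. Over a TKO peak lay 5.44% (3.65 to 8.03), against 6.71%. Several tracts can lie under 1 peak. Of the 23 over a TKO peak, 9 were at Tdrd7 and 4 at Mov10l1, each with 1 TKO peak. The intervals count tracts as independent and so are too narrow. The share over SssI peaks rose with length, from 10.9% at 12 to 15 bp to 74.0% (60.4 to 84.1) at 60 bp or more. All protein-coding genes gave 14.6% and 58.5% for the same classes, and 25.6% against 14.7% (11.5 to 18.6) at 16 to 23 bp.

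**Figure D4:**
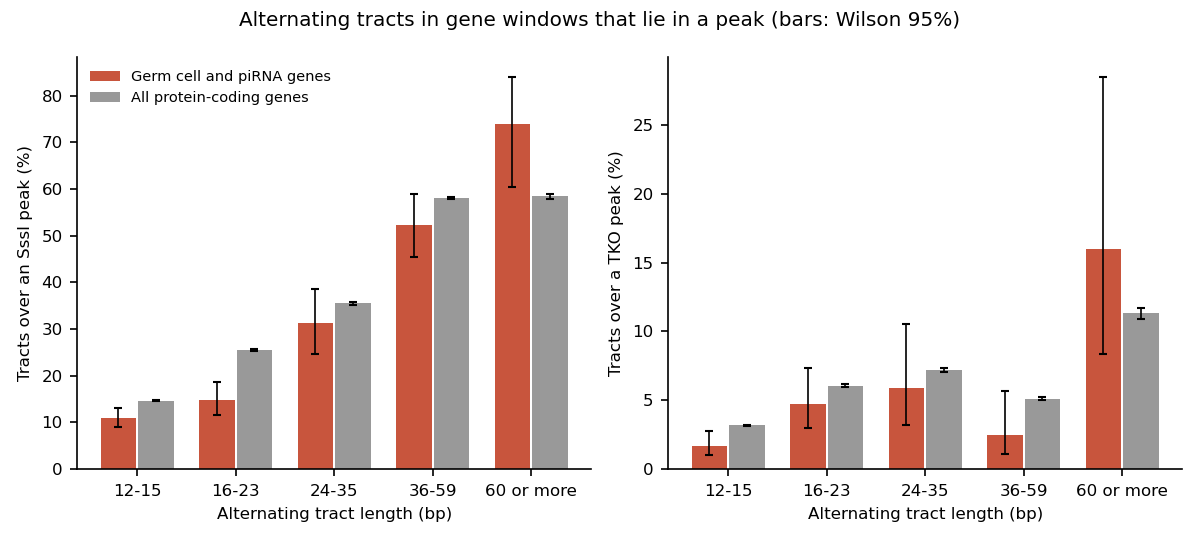
Share of alternating tracts in gene windows that lay over an SssI peak (left) or a TKO peak (right), by tract length in bp, for the genes studied (red) and all protein-coding genes (grey); error bars are Wilson 95% intervals. For SssI the red bar is below the grey bar at 16 to 23 bp (14.7% against 25.6%) and above it at 60 bp or more (74.0% against 58.5%).

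SssI peaks with 6 or more CpGs overlapped TKO peaks most often. CpGs were counted per peak and not per base, and wider peaks have room for more. The shared SssI peaks had a median width of 406.5 bp and the others 191.5 bp, so CpG number and width were not separated. With 6 or more CpGs, 8 of 22 were shared (36.4%, 19.7 to 57.0), against 27.6% of such peaks in the whole list. With no CpG 1 of 36 was shared (2.78%, against 2.75% of the list). With 1 to 2 CpGs it was 3 of 85 (3.53%, 1.21 to 9.87, against 5.97%), and with 3 to 5 CpGs 2 of 33 (6.06%, 1.68 to 19.6, against 14.6%). The peaks with 6 or more CpGs also had the highest median score, 738.5, against 68.5 for those without CpG. Over the whole SssI list these medians were closer, 328 and 81.

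A second list of germ cell genes, none of them among the 39, was counted in the same way. Of 47 symbols 46 were in the annotation. SssI peaks lay at 40 of them (87.0%) and TKO peaks at 11 (23.9%), with 207 and 13 peaks in all. Both shares were near those of all protein-coding genes. The genes of the second list were longer, with a median of 31.6 kb against 17.4 kb, and were not set beside genes of similar length.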

How the data were processed

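The authors aligned affinity-seq reads to mm10 with BWA 0.7.17, combined duplicates and called peaks with MACS2 2.2.7.1 at default parameters against the MBP libraries, per the study's methods. The deposited lists give for each peak a position and a score, made by the authors' peak caller from the q-value, with no read counts, so depth and its precision are unknown. Peaks were ranked by score within a list, ties by width. Genes and tracts were taken from GENCODE M21 and GRCm38, and positions are peak midpoints relative to the gene's 5′ end. Tract minimums were 12 bp for CA and CG runs and 16 bp for CACG runs.

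The 39 genes, the second list and the tests were chosen with earlier results of these data known. Peaks named were all TKO peaks, the 5 SssI peaks of highest score, all peaks within 3 kb of a start and the top peak of each role. The strongest peaks of Piwil1, Piwil2 and Tdrd6, the CACG and CG type peaks and the 2 in untranslated regions were named after their values were seen. The totals by role beside genes with as many tracts and the promoter windows were added after the data were seen. Some sequences of named peaks are not reported here. No p-value was computed. Python 3.11.15, numpy 2.4.6 and pandas 2.3.3 were used, and the counting was tested on simulated data for which the answers were known. Alternatives covered the window, q-value, overlap, tract length, comparison genes and start sites.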

Additional observations from a re-analysis of the deposited data

How the results depend on the processing

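No paired analysis was possible because the peak lists used here were made from pooled duplicates, and for the same reason no replicate was left out. Signal tracks of single libraries were not analysed here. Of 108 alternative values, 88 stayed within 1.5 times the value reported or, for shares, within its interval, and 20 moved. The window mattered most. Without extension of the gene span there were 6 genes with a TKO peak, 7 TKO peaks, 116 SssI peaks and a median of 2 SssI peaks, against 3 in genes of similar length. With 50 kb on both sides there were 25 genes, 40 TKO and 429 SssI peaks and medians of 1 and 10, the latter equal to that of genes of similar length. With midpoints inside the window the median TKO rank was 26.5%, the Dmc1 peak being left out. With the nearest start of any transcript, 4 TKO and 30 SssI peaks lay within 3 kb, within 1000 bp there were 0 and 4, and with the upstream side alone 8 SssI peaks. With tracts of 24 bp or more, 93.2% of SssI peaks held one. The share of tracts over an SssI peak was 20.3% from 12 bp, 31.3% from 16 bp and 56.5% from 36 bp, and over a TKO peak 3.26% from 12 bp. The q-value thresholds of 0.01 and 1e-05 moved no value in this sense. At 1e-05 there were still fewer SssI peaks, 136, with a median of 3, equal to that of genes of similar length. Then 12 SssI peaks lay within 3 kb of a start and 15 of 39 genes were above the median. The lowest TKO score at these genes was 63, above both cut-offs (scores of 20 and 50), so no TKO peak could drop out. Peak lists without depth cannot show whether a gene without a peak was less bound or less covered.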
